A study of Homo sapiens with 6 samples.

Results

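The genes described here are 5 neighbours on the long arm of human chromosome 11, in band 11q13: LRFN4, C11orf86, SYT12, RHOD and KDM2A, in that order. They are 5 of the 27980 gene symbols counted in each library and 5 of the 15473 that had enough counts to be tested. They were chosen because C11orf86, SYT12 and RHOD were nearly absent from shTRIP6 libraries while the genes on either side of them were not, so the differences between the groups at these 5 genes are given as a description, with no test. RNA was sequenced from RKO, a poorly differentiated human colon carcinoma cell line, in 6 libraries. The cells of 3 libraries (shTRIP6) expressed an integrated hairpin, delivered by lentivirus, that targets TRIP6. This gene encodes a LIM-domain adaptor protein of focal adhesions and the nucleus. Those of the other 3 (shControl) expressed a scrambled hairpin, and the labels call their genotype WT. Both groups had also been kept in 5 µg/ml puromycin for 2 to 3 weeks, starting 36 h after the virus was added. The labels call the replicates biological and name neither separate cultures nor clones, so p-values measure only the spread between these libraries.

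The 5 genes belong to unrelated families. RHOD encodes a small GTPase that acts on actin filaments and on the movement of early endosomes. SYT12 encodes an atypical synaptotagmin, a vesicle protein whose C2 domains lack the residues that bind calcium in other synaptotagmins. LRFN4 encodes a leucine-rich-repeat adhesion protein of synapses. KDM2A encodes a histone H3 lysine 36 demethylase that is brought to CpG islands by a CXXC zinc finger for unmethylated CpG. C11orf86 is a protein-coding open reading frame whose role is left out here.

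All 5 genes are read from the plus strand (GRCh38, GENCODE release 29, where each is a protein-coding gene). LRFN4 (ENSG00000173621.8) lies on chromosome 11 from 66856647 to 66860475, and C11orf86 (ENSG00000173237.4) lies from 66975277 to 66977004. SYT12 (ENSG00000173227.13) lies from 67006778 to 67050863, RHOD (ENSG00000173156.6) from 67056818 to 67072013, and KDM2A (ENSG00000173120.14) from 67119269 to 67258087. The gap from LRFN4 to C11orf86 is 114.8 kb. C11orf86, SYT12 and RHOD sit close together, with gaps of 29.8 kb and 5.95 kb, and fill 96.7 kb from the start of the first to the end of the last. RHOD is 47.3 kb short of KDM2A. LRFN4 lies inside PC, the gene of pyruvate carboxylase, which is read from the other strand. The start site of PC is 16.9 kb short of C11orf86. Exons of LRFN4 overlap those of PC, and since no source used here says whether counting used strand, reads from the overlap cannot be told apart. Exons of C11orf86, SYT12, RHOD and KDM2A overlap those of no other gene of the table. The microRNA genes MIR3163 and MIR6860, the other symbols of the table inside the interval, had 0 counts in all 6 libraries.

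Promoter windows of 300 bases (250 before and 50 after the RefSeq start) were found for 3 of the 5 members in RefSeq (GRCh38.p14): LRFN4, RHOD and KDM2A. The LRFN4 window begins at 66856814, after the GENCODE start of 66856647 given above. It therefore surrounds a later start, and its CpG are not those around the GENCODE start. DNA methylation and binding of KDM2A were not measured, and a part of promoter sequence in the levels was not tested. The windows are shown as a feature that the choice of the members did not use. RHOD lost nearly all of its RNA, and LRFN4 and KDM2A kept most of theirs. All 3 windows are rich in CpG. Each is written 5′ to 3′ on the plus strand, with every CpG in capitals.
RHOD, chr11:67056597-67056896: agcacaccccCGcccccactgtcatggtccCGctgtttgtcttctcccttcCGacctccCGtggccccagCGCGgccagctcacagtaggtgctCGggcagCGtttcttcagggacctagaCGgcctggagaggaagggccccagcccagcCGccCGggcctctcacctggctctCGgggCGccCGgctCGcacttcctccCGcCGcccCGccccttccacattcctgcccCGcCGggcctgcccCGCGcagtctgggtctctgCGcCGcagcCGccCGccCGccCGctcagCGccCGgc
LRFN4, chr11:66856814-66857113: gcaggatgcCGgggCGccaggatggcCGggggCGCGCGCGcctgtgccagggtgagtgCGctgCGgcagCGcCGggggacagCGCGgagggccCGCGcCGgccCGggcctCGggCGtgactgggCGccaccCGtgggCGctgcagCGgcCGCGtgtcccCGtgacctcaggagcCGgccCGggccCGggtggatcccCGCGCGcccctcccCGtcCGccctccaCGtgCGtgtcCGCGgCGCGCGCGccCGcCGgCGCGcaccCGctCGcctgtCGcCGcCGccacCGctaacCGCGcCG
KDM2A, chr11:67119013-67119312: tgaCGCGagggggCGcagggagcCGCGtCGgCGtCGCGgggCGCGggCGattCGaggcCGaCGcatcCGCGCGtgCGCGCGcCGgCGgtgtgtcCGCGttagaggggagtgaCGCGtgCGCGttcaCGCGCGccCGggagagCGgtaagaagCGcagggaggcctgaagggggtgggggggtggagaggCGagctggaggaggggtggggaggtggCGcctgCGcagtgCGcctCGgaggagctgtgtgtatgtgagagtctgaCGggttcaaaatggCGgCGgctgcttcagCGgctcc
The RHOD window held 30 CpG, against 55 in that of LRFN4 and 44 in that of KDM2A. Over all 35116 windows of the table the median was 14 CpG, and 77.6% had fewer CpG than the RHOD window. The share of C and G was 74.3% in the RHOD window, 83.3% in that of LRFN4 and 72.7% in that of KDM2A, where the median of all windows was 58.7%. A second start of KDM2A, from 67239764 to 67240063, had 12 CpG. Windows were also found for 15 of the 20 flanking genes described below. They held from 4 CpG at a start of PC to 53 at GRK2, with 30 at CCDC87 and at RPS6KB2. Of the motifs searched on both strands, GGAATG (known for TEAD factors) occurred once in the RHOD window and not in those of LRFN4 and KDM2A, while 14.0% of all windows held it. Among the flanking windows, it occurred once in the window shared by RBM14 and RBM14-RBM4 and in no other. RBM14 had a log2 fold change of 0.00090 and was not called. RBM14-RBM4, which shares exons with it, had one of -0.19 and was called lower (edgeR adjusted p = 0.00716). TGANTCA (known for AP-1) and TATAAA occurred in none of the windows of RHOD, LRFN4 and KDM2A, and in 7.71% and 11.5% of all windows. These are matches of letters and not shown sites.

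Depth was alike in the groups, at 31096598 to 32089298 counts per library in shTRIP6 and 29605764 to 30949334 in shControl. TRIP6, the targeted gene, had 19.8, 19.4 and 19.5 CPM (counts scaled for library size, with TMM factors) in the shTRIP6 libraries, against 73.9, 86.4 and 80.5 CPM in the shControl libraries. It was lower in every shTRIP6 library (log2 fold change -2.04 ± 0.07, edgeR adjusted p = 1.25e-14), and its exons overlap those of MIR6875. Of the markers of the line, KRT8 averaged 1719 CPM in shTRIP6 and 1804 CPM in shControl, KRT18 averaged 885 CPM in shTRIP6 and 871 CPM in shControl, VIM averaged 6271 CPM in shTRIP6 and 4103 CPM in shControl, EPCAM and VIL1 had 0 counts in all 6, and CDX2 and CDH1 were under 1 CPM. Of 9 fibroblast markers 8 were tested, 2 higher (PDGFRB and THY1) and 4 lower (COL1A1, COL3A1, DCN and FAP), where edgeR called 29.0% of all tested genes higher and 31.2% lower. Their summed level was 159.8 to 180.2 CPM in shTRIP6 and 114 to 127 CPM in shControl, most of it THY1. FAP averaged 0.328 ± 0.0763 CPM in shTRIP6 and 15.0 ± 1.33 CPM in shControl, COL3A1 averaged 0.275 ± 0.143 CPM in shTRIP6 and 2.35 ± 0.36 CPM in shControl, and DCN had 0 counts in shTRIP6. The 7 leukocyte markers summed to 236 to 245 CPM in shTRIP6 and 187 to 236 CPM in shControl, nearly all CD68. Of these 7, 2 were tested and called higher, CD14 (2.2 CPM in shTRIP6 and 0.52 CPM in shControl) and CD68 (239 and 208 CPM). The call of CD68 was lost without shControl replicate 2 (edgeR adjusted p = 0.0921). PTPRC and CD3E had 0 counts in shTRIP6 and were under 1 CPM in shControl. The 5 endothelial markers summed to 0.257 to 0.288 CPM in shTRIP6 and 1.78 to 2.31 CPM in shControl, with PECAM1 at 0 counts in shTRIP6. The part of these marker differences in the levels of the 5 members was not tested.

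C11orf86 had 3, 11 and 5 counts in the shTRIP6 libraries, against 738, 1030 and 1035 counts in the shControl libraries. The level was 0.202 ± 0.134 CPM in shTRIP6 and 30.4 ± 4.89 CPM in shControl (SD, n = 3 each). The log2 fold change of shTRIP6 over shControl, from edgeR's fit across all genes, was -7.21 ± 0.23 (SE). All shTRIP6 libraries lay far below the lowest shControl library, and the summed counts left 0.654% of the shControl level (95% exact Clopper-Pearson interval 0.393% to 1.02%, which covers counting error only).

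SYT12 had 0, 6 and 2 counts in the shTRIP6 libraries, against 504, 681 and 632 counts in the shControl libraries. The level was 0.0854 ± 0.0976 CPM in shTRIP6 and 19.7 ± 2.53 CPM in shControl, with a log2 fold change of -7.80 ± 0.30. A library with no count, as shTRIP6 replicate 1 had for SYT12, could still stand at up to 0.0941 CPM, which is 3 counts at its depth. The summed counts left 0.425% of the shControl level (0.183% to 0.839%).

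RHOD had 2, 4 and 6 counts in the shTRIP6 libraries, against 259, 326 and 353 counts in the shControl libraries. The level was 0.128 ± 0.0651 CPM in shTRIP6 and 10.2 ± 1.38 CPM in shControl, with a log2 fold change of -6.28 ± 0.29. Again the groups did not overlap, and the summed counts left 1.24% of the shControl level (0.636% to 2.17%). In bulk RNA a loss of this size could come from fewer cells with the transcript or from less of it in every cell, and these cannot be told apart.

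LRFN4, before the 3 nearly absent genes, had 71.7, 71.1 and 71.6 CPM in the shTRIP6 libraries, against 112, 129 and 115 CPM in the shControl libraries. KDM2A, after them, had 95.6, 94.9 and 97.0 CPM in the shTRIP6 libraries, against 162.5, 151 and 155 CPM in the shControl libraries. Both outer members were lower by a like amount, with a log2 fold change of -0.73 ± 0.06 for LRFN4 and -0.70 ± 0.05 for KDM2A. The summed counts left 59.6% of the shControl level of LRFN4 (57.8% to 61.4%) and 60.8% of that of KDM2A (59.2% to 62.5%). Among all tested genes, 14.4% had a log2 fold change at or below that of LRFN4 and 14.9% at or below that of KDM2A, while 0.42% were at or below that of SYT12, 0.692% at or below that of C11orf86 and 1.47% at or below that of RHOD.

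**Figure D1:**
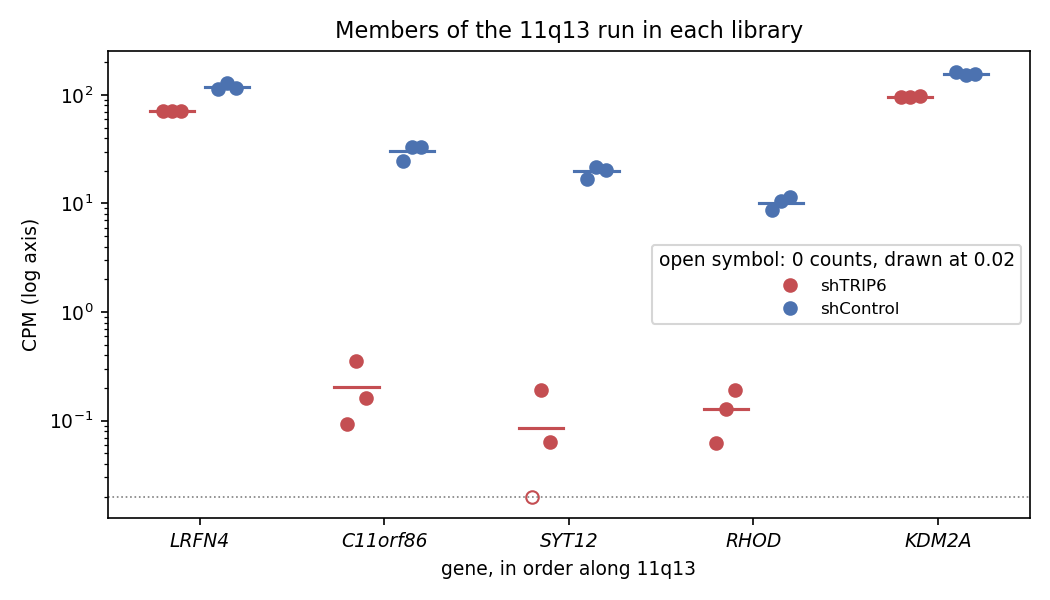
CPM of the 5 members in each library on a log axis, with shTRIP6 left of shControl for each gene. Points are libraries, horizontal bars are group means, and the open symbol is the library with 0 counts of SYT12. C11orf86, SYT12 and RHOD stand at 0 to 0.352 CPM in the shTRIP6 libraries, while LRFN4 and KDM2A stand at 71.1 to 97.0 CPM there.

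At 5 of 5 members the highest shTRIP6 library was under the lowest shControl library, as was so for 33.5% of the 15473 tested genes. Among tested genes at 1 CPM or more in shControl, 3.16% kept no more than 5% of that level, and 3 of the 5 members did. The members were chosen on this difference, so nothing is read from these counts. All 5 members passed the filter on low counts, and C11orf86, SYT12 and RHOD passed it through the shControl libraries.

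Replicates of a group varied in the members to different degrees. The spread was measured as chi-square per degree of freedom of a gene's 3 counts, which is near 1 where libraries differ by sampling noise only. In shTRIP6 it was 0.133 for LRFN4, 0.75 for KDM2A, 1.06 for RHOD, 2.77 for C11orf86 and 3.52 for SYT12. In shControl it was 22.0 for LRFN4, 6.41 for KDM2A, 5.47 for RHOD, 23.4 for C11orf86 and 9.85 for SYT12. By this measure, which grows with the count as well as with the spread, every member varied more in shControl than in shTRIP6. Replicate 1 of shControl had the lowest CPM of its group at LRFN4, C11orf86, SYT12 and RHOD and the highest at KDM2A. Leaving shControl replicate 1 out moved the log2 fold change of C11orf86 to -7.34, that of SYT12 to -7.89 and that of RHOD to -6.38. Among shTRIP6 libraries, replicate 2 held 6 of the 8 counts of SYT12 and 11 of the 19 of C11orf86. Without that library the log2 fold change was -9.10 for SYT12 and -7.85 for C11orf86, both changes of over 1.5 times on the linear scale.

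Per kilobase of merged exons, the order of the levels in shTRIP6 was LRFN4 at 25.3 ± 0.114 CPM per kb, KDM2A at 9.23 ± 0.106, C11orf86 at 0.17 ± 0.113, RHOD at 0.101 ± 0.0514 and SYT12 at 0.00788 ± 0.00901. Of the neighbours in that order, C11orf86 and RHOD did not differ beyond their spread. In shControl the order was LRFN4 at 42.0 ± 3.18 CPM per kb, C11orf86 at 25.6 ± 4.12, KDM2A at 15.0 ± 0.554, RHOD at 8.06 ± 1.09 and SYT12 at 1.82 ± 0.234, and each neighbour lay beyond the spread of the next. C11orf86 stood above KDM2A per kilobase in shControl and below it in shTRIP6. Merged exons count every annotated isoform, so a gene of which few isoforms are made is understated.

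Whether the shift reaches past the members was asked of the 10 tested genes on each side, which were chosen by position only and could therefore be tested. Of those at 1 CPM or more in shControl, 0 of 19 stood at 5% or less of it. By edgeR (quasi-likelihood, Benjamini-Hochberg adjustment over all 15473 genes), 9 of the 20 were lower in shTRIP6, 2 were higher and 9 did not pass the threshold of 0.05. Of all tested genes 31.2% were called lower and 29.0% higher, and 60.1% were called in either direction. The median log2 fold change of the 20 was -0.16, where that of all tested genes was -0.0040.

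On the side before LRFN4, 6 of the 10 genes were lower and 0 were higher by edgeR, and 0 were higher at an unadjusted p under 0.05, in DESeq2 or in limma-voom. PC, the mitochondrial enzyme that makes oxaloacetate from pyruvate, had 9.47, 11.7 and 8.32 CPM in the shTRIP6 libraries, against 33.7, 37.5 and 35.6 CPM in the shControl libraries. It fell to 27.6% of the shControl level (log2 fold change -1.86 ± 0.11, edgeR adjusted p = 2.53e-11), with no overlap between the groups. RBM4B, an RNA-binding protein of splicing, averaged 21.6 ± 1.25 CPM in shTRIP6 and 35.2 ± 2.21 CPM in shControl (SD, n = 3 each), a log2 fold change of -0.71 ± 0.08. RCE1, the protease that trims prenylated RAS proteins, fell by 0.43 on the log2 scale, RBM4 fell by 0.23 and the read-through RBM14-RBM4 fell by 0.19. C11orf80, next to RCE1, had a log2 fold change of -0.14 that was not called. RBM14, the copper chaperone gene CCS and CCDC87 were not called either, with values of 0.00090, 0.15 and 0.12. RBM4, RBM4B, RBM14 and RBM14-RBM4 share exons with a neighbour, as do C11orf80 with RCE1 and CCS with CCDC87, so reads in the overlaps may be counted for either gene.

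On the side after KDM2A, 3 of the 10 genes were lower and 2 were higher. GRK2, the receptor kinase gene that begins 8.32 kb after KDM2A, had 64.4, 67.8 and 65.6 CPM in the shTRIP6 libraries, against 61.9, 64.5 and 73.3 CPM in the shControl libraries. These values overlapped, and the log2 fold change of -0.01 ± 0.06 was not called (edgeR adjusted p = 0.866). ANKRD13D, an ankyrin-repeat ubiquitin-binding protein, rose, with 22.7 ± 1.08 CPM in shTRIP6 and 16.7 ± 1.31 CPM in shControl (log2 fold change 0.45 ± 0.09, edgeR adjusted p = 0.000334). SSH3, a slingshot phosphatase of cofilin, fell, with 7.92 ± 0.525 CPM in shTRIP6 and 11.9 ± 1.2 CPM in shControl (log2 fold change -0.58 ± 0.13). CLCF1, a cytokine of the interleukin-6 family, fell, with 11.7 ± 1.3 CPM in shTRIP6 and 21.9 ± 0.634 CPM in shControl (log2 fold change -0.91 ± 0.10). CORO1B, a coronin that acts on branched actin, rose, with 145 ± 7.46 CPM in shTRIP6 and 112 ± 3.27 CPM in shControl (log2 fold change 0.37 ± 0.05), and its exons overlap those of PTPRCAP. RPS6KB2, an S6 kinase, was called lower at a log2 fold change of -0.19 (edgeR adjusted p = 0.0263), although its libraries overlapped between the groups. That call was lost when shTRIP6 replicate 2 or 3 was left out (adjusted p = 0.103 and 0.11), when shControl replicate 2 or 3 was left out (0.113 and 0.0883), and under upper-quartile scaling (0.0857). RAD9A, POLD4, PPP1CA and PTPRCAP were not called, at -0.06, 0.09, 0.10 and -0.94, the last of them at under 1 CPM in both groups. PTPRCAP was called lower without shTRIP6 replicate 2 (-2.63, adjusted p = 0.0235), and PPP1CA higher without shTRIP6 replicate 3 (0.14, adjusted p = 0.0366). The difference between the sides in the number of calls was not tested.

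**Figure D2:**
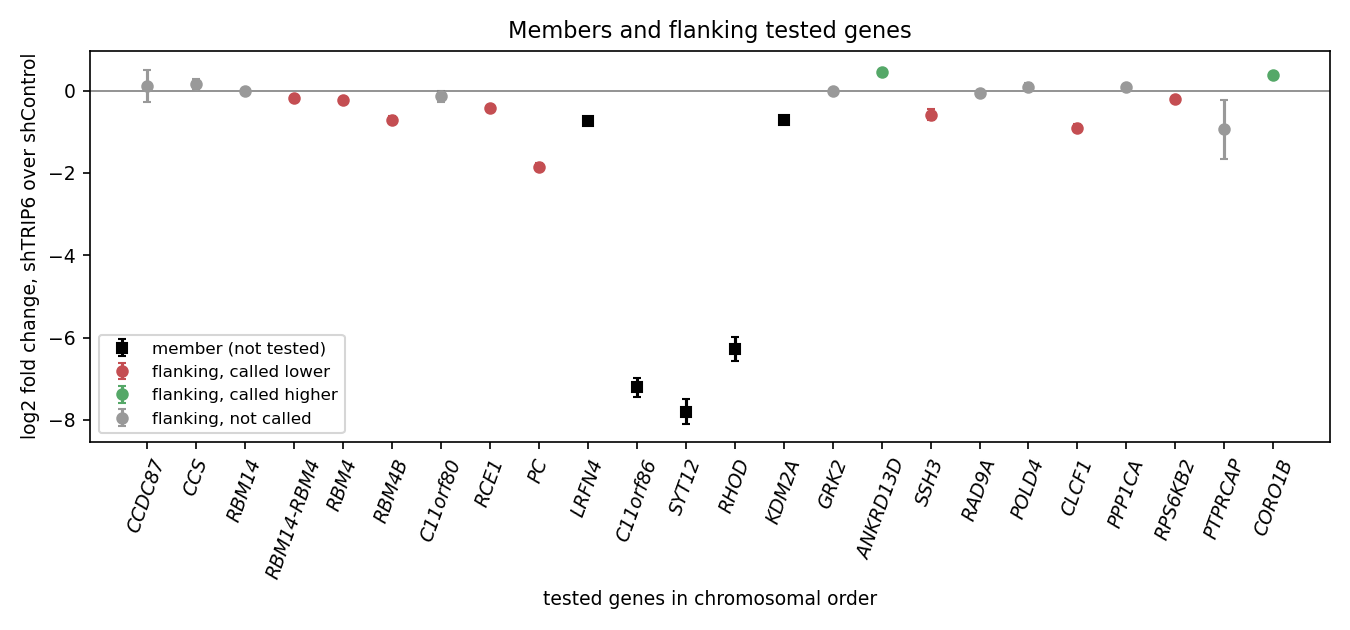
Log2 fold change of shTRIP6 over shControl for the 5 members (squares, not tested) and 19 of the 20 flanking tested genes (circles, coloured by edgeR call), in chromosomal order. Bars are SE. The 3 inner members lie between -6.28 and -7.80, and PC, the flanking gene next to LRFN4, at -1.86. A single flanking gene is not drawn.

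Wider windows around the interval from LRFN4 to KDM2A held a smaller share of lower genes than the 20 flanking genes did, a difference that was not tested. Within 0.5 Mb of its ends, 13 of 36 tested genes other than the members were lower and 5 higher, with a median log2 fold change of -0.12. Within 1 Mb, 18 of 65 were lower and 16 higher, with a median of -0.02. Within 2 Mb, 29 of 116 were lower and 38 higher (median 0.02), and within 5 Mb 55 of 213 were lower and 74 higher (median 0.04). Over the whole of chromosome 11 without the members, 196 of 822 were lower and 306 higher, with a median of 0.10. Within 1 Mb, 0 of 62 genes at 1 CPM or more in shControl stood at 5% or less of it. Within 5 Mb 2 of 197 did, both named after their values were seen. GAL, the galanin gene, 1.43 Mb away, had 0 CPM in all shTRIP6 libraries and 1.84 ± 0.283 CPM in shControl, and FOLR1, a folate receptor gene, 4.93 Mb away, had 0.359 ± 0.206 CPM in shTRIP6 and 85.4 ± 3.85 CPM in shControl.

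**Figure D3:**
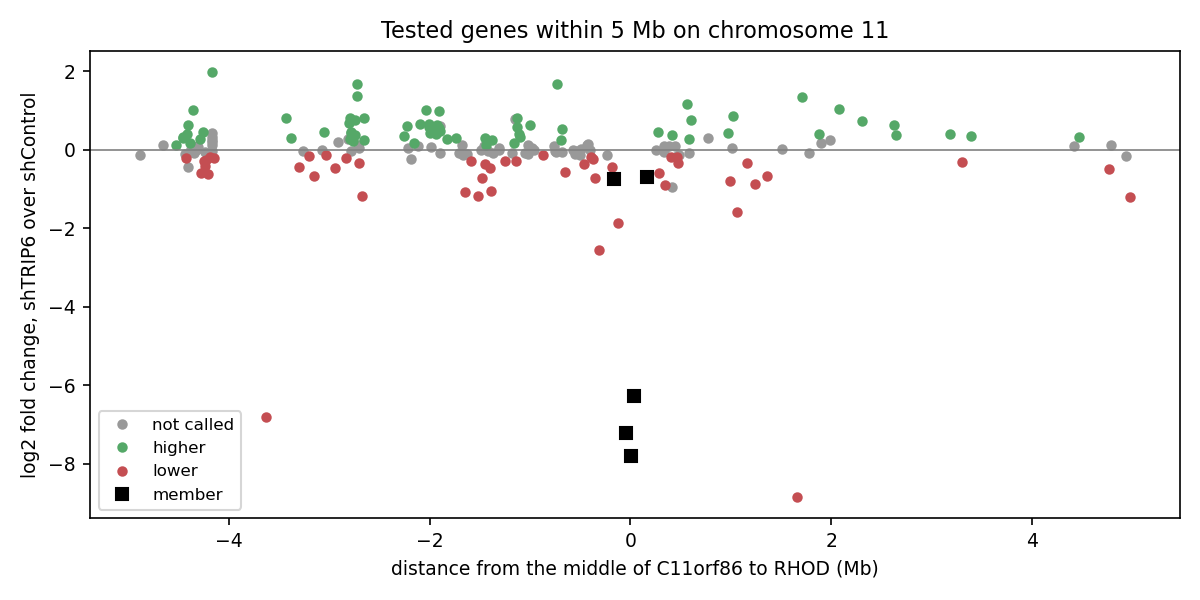
Log2 fold change of shTRIP6 over shControl against distance from the middle of the stretch from C11orf86 to RHOD, for tested genes of chromosome 11 within 5 Mb. Each point is a gene, squares are the members and colours give the edgeR call. The 3 inner members stand at -6.28 to -7.80, apart from LRFN4 at -0.73 and KDM2A at -0.70.

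C11orf86, SYT12 and RHOD formed a run of 3 consecutive tested genes that each kept no more than 5% of the level in shControl. The whole table held 10 runs of 3 or more such genes, of which 6 were longer than 3 and the longest had 11. Runs count gene symbols, which are not always separate genes. The run of 11, on chromosome 19, holds the read-through ZNF816-ZNF321P beside ZNF816 and ZNF321P. A run of 9 on chromosome 2 holds UGT1A symbols only. A run on chromosome 7 held the 3 genes CPVL, CHN2 and PRR15 over 572 kb, and a run on chromosome 13 held 4 genes over 458 kb, against 96.7 kb for the run described here. Runs of 3 genes on chromosomes 8 and 9 were narrower, at 79.9 kb and 11.9 kb, and that on chromosome 8 counts the microRNA gene MIR6843. With the level set at 10% or at 25% of shControl in place of 5%, the run with RHOD still held 3 genes. The members were chosen for this pattern, so nothing is read from the length of their run. The next tested genes by start, LRFN4 and KDM2A, kept 60.2% and 61.4% of their mean level in shControl, and PC, whose start site is nearest to C11orf86, kept 27.6%.

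The genes most like SYT12 and RHOD over the 6 libraries were found by the root mean square difference of log2 CPM, each gene centred on its own shControl mean, among tested genes within 2-fold of the member's shControl mean. For SYT12 these were LPL, the lipoprotein lipase gene (a difference of 0.18), LINC01133 (0.33) and MPHOSPH8 (0.38), out of 4485 genes. C11orf86 lay at 0.29 from SYT12, between the first of these and the next. For RHOD they were MAL2 (0.18), CCAT1 (0.24) and ANGPTL2 (0.27), out of 3350 genes, while C11orf86 lay at 0.90 from RHOD and SYT12 at 1.14. Members were not held to the 2-fold limit. C11orf86, at 30.4 CPM in shControl against 10.2 CPM for RHOD, lay outside it, so its distance from RHOD is not on the same footing. SYT12, at 19.7 CPM in shControl, and RHOD both fell to few or no counts in shTRIP6. Distances near that floor depend on the shControl level as well as on the fall. The members were chosen on this difference between the groups, so nothing is read from the distances. None of the 5 most alike genes that the annotation places lies on chromosome 11, and CCAT1 was not placed.

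Paralogs and partners of the members, listed by family and reported binding, were counted with the same edgeR calls. Of the other GTPases of the family of RHOD, 4 of 17 tested genes were higher in shTRIP6 and 9 lower, with a median log2 fold change of -0.27, beside 29.0% higher, 31.2% lower and a median of -0.0040 over all tested genes. RHOF, a GTPase of filopodia and the closest relative of RHOD, had 13.5, 13.9 and 10.9 CPM in the shTRIP6 libraries, against 95.3, 94.4 and 94.2 CPM in the shControl libraries. It fell by 2.89 ± 0.08 on the log2 scale (edgeR adjusted p = 3.03e-16), and its exons overlap those of LINC01089 and TMEM120B. RHOV averaged 0.787 ± 0.256 CPM in shTRIP6 and 5.13 ± 0.843 CPM in shControl, and fell by 2.70 on the log2 scale. RAC2, a RAC GTPase best known from blood cells, rose, with 128 ± 5.45 CPM in shTRIP6 and 59.9 ± 1.71 CPM in shControl (log2 fold change 1.09 ± 0.05), and RHOC rose as well (0.57 ± 0.05). Of the proteins reported to bind RHOD, 2 of 5 tested genes were higher and 2 lower, with the same shares of all tested genes beside them. The formin gene DIAPH3 rose by 0.40 on the log2 scale and the kinase gene DAPK3 by 0.18, while the plexin gene PLXNA1 fell by 0.52 and the endosomal protein gene ANKFY1 by 0.45. The call of DAPK3 did not hold when shTRIP6 replicate 1 or 2 was left out (adjusted p = 0.103 and 0.0666), nor when shControl replicate 1 was (0.0779).

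Among the other synaptotagmins, 4 of 7 tested genes were lower and 0 higher by edgeR, DESeq2 and limma-voom counted 0 higher, and the median log2 fold change was -1.41, where edgeR called 31.2% of all tested genes lower and 29.0% higher. SYT3, named after its values were seen, was the 1 gene higher at an unadjusted p under 0.05, at 0.806 CPM in shTRIP6 and 0.361 CPM in shControl (edgeR adjusted p = 0.0503), and 1 gene was called higher under upper-quartile scaling and without shControl replicate 1 or shTRIP6 replicate 3. SYT17 had 0.659, 1.12 and 0.739 CPM in the shTRIP6 libraries, against 7.53, 8.73 and 6.17 CPM in the shControl libraries, a log2 fold change of -3.15 ± 0.24 (edgeR adjusted p = 1.39e-09). SYT7, a calcium sensor of slow release and lysosome exocytosis, stood at 0.159 ± 0.0559 CPM in shTRIP6 and 2.76 ± 0.0636 CPM in shControl, a log2 fold change of -4.08 ± 0.39. The other 16 listed synaptotagmins summed to 8.06 to 9.69 CPM in shTRIP6 and 19.4 to 21.9 CPM in shControl, and 5 of them (SYT4, SYT6, SYT8, SYT10 and SYT13) had 0 counts in all 6 libraries.

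Of the other LRFN genes and the DLG scaffolds they bind, 2 of 6 tested genes were higher and 1 lower, beside 29.0% and 31.2% of all tested genes. DLG1 rose by 0.48 on the log2 scale and LRFN1 by 0.34, and DLG3 fell by 2.01, with 6.06 ± 1.03 CPM in shTRIP6 and 24.4 ± 0.863 CPM in shControl. The call of LRFN1 was lost without shTRIP6 replicate 2 (adjusted p = 0.0555). Of the genes for other demethylases and for methyltransferases of histone H3 lysine 36, 1 of 11 was higher and 7 were lower, beside 29.0% and 31.2% of all tested genes, with a median log2 fold change of -0.30. NSD2, a methyltransferase, rose, with 303 ± 2.74 CPM in shTRIP6 and 207 ± 3.12 CPM in shControl, and KDM4D and SETMAR fell by 1.68 and 0.88 on the log2 scale. Of the genes for other CXXC proteins, 2 of 11 were higher and 3 lower, again beside 29.0% and 31.2%, with a median of 0.10. The maintenance methyltransferase gene DNMT1 rose by 0.21 and KMT2A by 0.17 on the log2 scale, and TET3 fell by 0.52 and KMT2B by 0.21. The call of KMT2A was lost without shControl replicate 2 (adjusted p = 0.079) or shTRIP6 replicate 3 (0.0653), and that of KMT2B without shControl replicate 3 (0.0506).

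**Figure D4:**
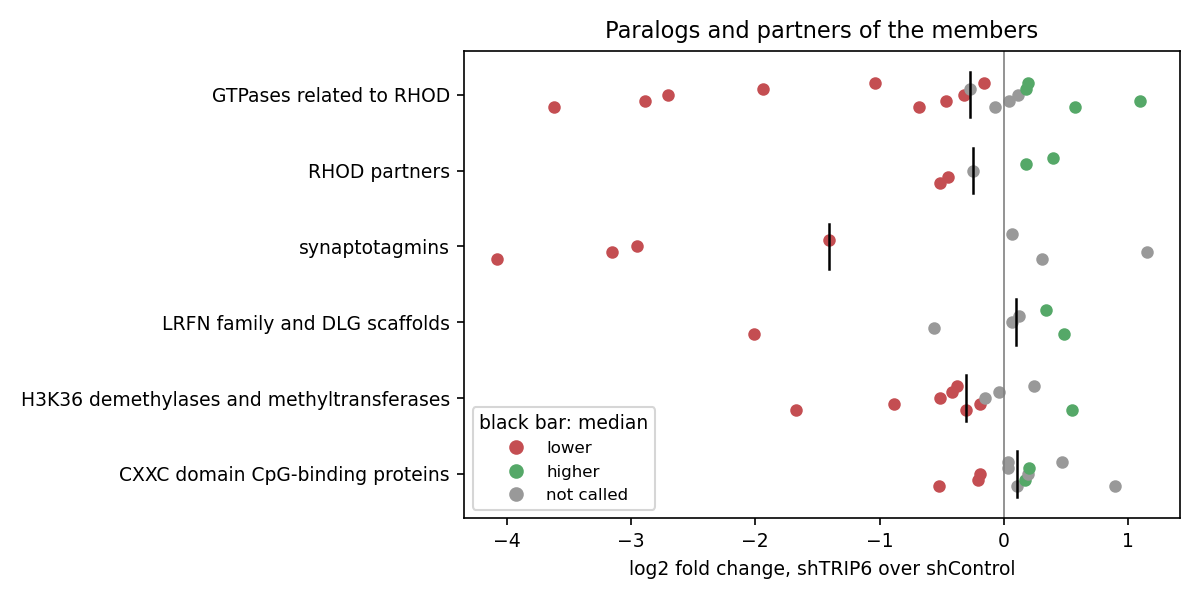
Log2 fold change of shTRIP6 over shControl for tested paralogs and partners of the members, the members themselves left out. Each point is a gene coloured by its edgeR call, and black bars are medians. Synaptotagmins have the lowest median, -1.41, and the GTPases related to RHOD spread from -3.62 to 1.09.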

How the data were processed

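The authors deposited 1 table of raw counts by gene symbol for each of 6 libraries. TopHat2, edgeR, limma and hg38 appear in the submitters' processing notes, without role, order or version. Which tool counted reads, with which annotation and strand setting, was not given in the sources used here. Totals were 29605764 to 32089298 counts per library, so a single count was worth 0.0314 to 0.0336 CPM. Groups and replicate numbers came from the labels.

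All 15473 genes passing filterByExpr were fitted in R 4.3.3 with edgeR 4.0.16 (TMM, quasi-likelihood test, group as the only term), and called at 0.05 after Benjamini-Hochberg adjustment. CPM used library sizes scaled by TMM. The absolute log2 fold change divided by the root of its F statistic gave the SE. Coordinates and merged exons came from GENCODE release 29 (GRCh38), which matched 25812 of 27980 symbols. Flanking genes were the 10 tested genes on each side in order of start. From each list up to 2 called rises and 2 called falls were named, if their mean reached 1 CPM, and, for SYT12 and RHOD, the 3 most alike genes. This fit was first checked on simulated counts. Alternatives were RLE, upper-quartile and no scaling, DESeq2 1.42.0, limma-voom from limma 3.58.1, no filter or 1 CPM in 3 libraries as the filter, a replicate block, leaving out each library, and other flanks and run levels; for the distance windows they were added after seeing the data. Some genes that the rule takes up are not reported here. Members and lists were chosen with earlier results of these data known.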

Additional observations from a re-analysis of the deposited data

How the results depend on the processing

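Over the 14 alternative fits, genes called higher numbered 4018 to 5073 and genes called lower 4368 to 5049, the flanking genes called lower numbered 8 to 9, and TRIP6 stayed at -2.10 to -1.98 on the log2 scale. With 5 flanking genes on each side 5 of these 10 were lower, and with overlapping genes left out 4 of the remaining 7 were. Of all tested genes 31.2% were called lower. The run with RHOD held 3 genes at each level tried, a length that the choice of the members had fixed. In the replicate block 4377 genes were higher and 4702 lower, against 4487 and 4820 without it. Same-numbered libraries did not deviate together (correlations of -0.0234, -0.0448 and -0.0258 over 15473 genes), and no flanking call was changed by the block. The counts thus show no pairing by number, and the labels do not say whether same-numbered libraries were handled together. With 20 flanking genes on each side in place of 10, 7 were higher and 13 lower. At 25% of shControl the table held 17 runs of 3 or more genes, against 10 at 5%. Upper-quartile scaling gave 1 synaptotagmin called higher in place of 0, 2 histone H3 lysine 36 enzymes called higher in place of 1, KDM2A at -0.66 and GRK2 at 0.034 in place of -0.014. RBM14, near no change, turned to -0.0019 in DESeq2, -0.0025 under RLE scaling, -0.00016 with the filter of 1 CPM and -0.012 with no scaling. The cause of these changes was not tested.

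Leaving out each library in turn gave log2 fold changes of -7.85 to -6.86 for C11orf86, -9.10 to -7.21 for SYT12 and -6.68 to -5.95 for RHOD. Genes not called that changed sign were RBM14 (-0.071 to 0.052), GRK2 (-0.064 to 0.060), RAD9A (-0.12 to 0.015), POLD4 (-0.016 to 0.18) and CCDC87 (-0.21 to 0.44). Calls higher numbered 1 to 3 for RHOD partners, 0 to 1 for synaptotagmins, 1 to 2 for the LRFN and DLG genes, 1 to 2 for the lysine 36 enzymes and 1 to 3 for the CXXC genes, and calls lower 1 to 2 for the LRFN and DLG genes. With 0 to 11 counts in a shTRIP6 library, depth limits how closely the remaining level of C11orf86, SYT12 and RHOD is known.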
